A study of Mus musculus with 6 samples.

Results

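The genes described here are 47 lysosomal genes of mouse macrophages: 9 cathepsin-type proteases (with legumain, Lgmn), 15 subunits and accessory proteins of the proton pump, 13 other hydrolases and their cofactors, 7 membrane and carrier proteins, and the transcription factors Tfeb, Tfe3 and Mitf. They were taken by gene symbol from a table of 55335 genes, in which each of the 47 symbols was found once. The cells were primary macrophages that had been differentiated from mouse bone marrow in 10% serum with 20 ng/mL of the growth factor M-CSF. Acinar cells secrete the digestive enzymes of the pancreas, and on day 5 every culture received medium in which injured acinar cells had been kept (pancreatic acinar cell conditioned medium, PAC-CM). The group called PAC-CM (3 libraries) had this medium only, while the group called PAC-CM-KD (3 libraries) also had 400 µM kinsenoside, a glycoside from plants. The comparison asks how macrophages given this medium, a culture model of acute pancreatitis, differ with and without kinsenoside. No macrophages without the medium were analysed here, so no value shows the response to the medium itself. How the acinar cells were injured, the strain, age and sex of the mice and the time from treatment to harvest are not given in the sources used here. No label states that the replicates were independent cultures or mice, and the p-values therefore reflect the spread among these 6 libraries, which may be only technical.

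Lysosomes break down material that macrophages engulf or recycle. Their luminal enzymes work in acid, and the acid is made by the V-ATPase, a rotary pump whose cytosolic V1 sector splits ATP and whose membrane V0 sector carries protons inward. TFEB, TFE3 and MITF bind a short palindrome in the promoters of many lysosomal genes, the CLEAR element, whose core TCACGTGA contains the E-box CACGTG. Their activity is set largely by phosphorylation and by entry into the nucleus, which RNA levels do not measure. RNA counts show neither enzyme activity nor lysosomal pH.

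The promoters of the members were searched for both motifs, because the 3 factors in the list bind them. RefSeq promoters (GRCm38.p6, from 250 bases before to 50 after a start site) were matched for 40 of the 47 members, and Asah1, Atp6v1b2, Atp6v1c1, Atp6v1g1, Atp6v1h, Ctsb and Ctsh had none in the table used. Both motifs are palindromes, so 1 search covers both strands, and every CLEAR core also counts as an E-box. The E-box was in a promoter of 14 of the 40 members (35%), against 2187 of all 27025 genes in the table (8.09%). The CLEAR core was in 7 of the 40 (17.5%), against 304 of 27025 genes (1.12%). The element is known from lysosomal promoters, so higher shares in a list of lysosomal genes are no result of these data. The 9 windows that hold the CLEAR core are shown with 10 bases on each side, 5′ to 3′ along the gene, with the motif in capitals. A match is a description of the letters and not a measured binding site.
Ctsd (cathepsin D, chr7:142387909-142387936, minus strand): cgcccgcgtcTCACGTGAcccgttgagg
Ctsa (cathepsin A, chr2:164833750-164833777, plus strand): gagcaaactgTCACGTGAtgcagatgct
Ctsa (next match, chr2:164833767-164833794, plus strand): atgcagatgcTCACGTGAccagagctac
Atp6v1a (V1 subunit A, chr16:44139374-44139401, minus strand): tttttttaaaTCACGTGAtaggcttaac
Atp6v0d1 (V0 subunit d1, chr8:105566051-105566078, minus strand): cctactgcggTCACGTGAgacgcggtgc
Atp6v0e (V0 subunit e1, chr17:26676388-26676415, plus strand): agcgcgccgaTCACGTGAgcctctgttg
Gla (alpha-galactosidase A, chrX:134601216-134601243, minus strand): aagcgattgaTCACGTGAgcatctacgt
Gla (next match, chrX:134601183-134601210, minus strand): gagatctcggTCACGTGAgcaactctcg
Mcoln1 (lysosomal calcium channel, chr8:3500463-3500490, plus strand): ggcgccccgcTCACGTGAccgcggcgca

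The matches began between 228 bases before the start site, in Gla, and 5 bases after it, in Ctsa. Gla and Ctsa held a pair each. Atp6v0b, Ctsl, Gaa, Glb1, Naglu, Lgmn and Lamp1 held the E-box without the CLEAR core. In Lgmn it lay 49 bases before the start site farther inside the gene, and in Lamp1 at 4 positions within 61 bases of the start site. Ctsa and Lgmn each also had a promoter nearer the 5′ end of the gene, which held neither motif. Lgmn is shown because it had the smallest p of the 47 genes, and the 250 bases upstream of Lamp1 because they had the most matches.
Lgmn (legumain, chr12:102439126-102439151, minus strand): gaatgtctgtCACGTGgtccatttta
Lamp1 (lysosomal membrane protein 1, chr8:13158911-13159160, plus strand): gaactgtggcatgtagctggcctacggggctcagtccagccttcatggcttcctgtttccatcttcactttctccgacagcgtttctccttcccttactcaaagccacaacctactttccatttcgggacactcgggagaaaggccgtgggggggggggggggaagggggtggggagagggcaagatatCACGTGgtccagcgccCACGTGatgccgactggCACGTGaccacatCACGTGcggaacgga

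The libraries held 41125059 to 47461702 counts each. The fewest counts of any member in any library were 808, so depth does not limit these genes as it does rare ones. PAC-CM-KD replicate 1 stood apart on the second principal component (at -39.3, the others between -6.13 and 19.7), and values without it are given for some of the results. The cells carried macrophage markers: the 8 marker genes (Itgam under 2 Ensembl identifiers, both counted) summed to between 20503 and 22617 CPM (the count of a gene relative to the total count of its library) in PAC-CM and between 22393 and 25275 in PAC-CM-KD. The 12 acinar cell markers summed to 7.30 to 8.07 and 5.88 to 8.29 CPM, with Amy2a1 at 0 in all 6 libraries. Neutrophil markers summed to 30.9 to 39.9 and 33.2 to 42.8 CPM, with Elane and Retnlg at 0, and osteoclast markers to 430 to 520 and 359 to 458 CPM, with Oscar at 0. Markers of dendritic, T and NK, B, mast, stromal and erythroid cells summed to at most 15.1 CPM per list. Single genes made up most of several sums. Over the 6 libraries Lyz2 was at 11052 to 15323 CPM, S100a8 of the neutrophil list at 28.5 to 41.8 and Acp5 at 261 to 435. Cd4 of the T and NK list was at 5.83 to 14.9 CPM and Xcr1 of the dendritic list at 5.42 to 8.47. The groups overlapped in the sums of all 10 lists. Cd68 and Lyz2 of the macrophage list and Acp5 and Ctsk of the osteoclast list also encode lysosomal proteins. In bulk RNA, fewer cells of a type and less RNA per cell cannot be told apart.

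No lysosomal gene passed the test between macrophages given kinsenoside and those given the medium alone, and most estimates were small and on the higher side. By the quasi-likelihood test of edgeR, adjusted over all 13901 genes tested by the Benjamini-Hochberg method, 0 of the 47 members were called at an adjusted p under 0.05. Among all genes tested 71 were called (0.511%), 0.209% of the genes tested as higher and 0.302% as lower. The members were chosen with earlier results of these data known, so shares beside those of all genes are descriptions and were not tested. At an unadjusted p under 0.05, 11 members (23.4%) were higher and 0 lower, against 6.74% of all genes tested higher and 8.19% lower. Over 17 alternatives these member counts ran from 5 higher (total count scaling) to 17 (GC correction), with 8 for upper quartile scaling and 7 without PAC-CM replicate 2 or 3, and from 0 to 2 lower. DESeq2 called 5 members, all higher: Lgmn, Atp6v1a, Atp6v1b2, Atp6v1c1 and Atp6v1d. That tool called 494 of the 13895 genes to which it gave a p-value (3.56%), and limma-voom called 0 members and 39 genes.

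The estimates lay above 0 for 39 members (83.0%) and below 0 for 8, with a median log2 fold change of 0.09. Over all genes tested 48.9% lay above 0, and the median was -0.01. With scaling by total count alone 33 members lay above 0 and the median was 0.05, and with upper quartile scaling 34 did and the median was 0.07. With 1 library left out the number above 0 ran from 32 (without PAC-CM replicate 3) to 39, and was 35 without PAC-CM-KD replicate 1. The 95% interval of the log2 fold change was within 0.5 of 0 for 42 members, and the exceptions were Lgmn, Atp6v0c, Gaa, Naglu and Gla. In CPM, all 3 PAC-CM-KD libraries were above all 3 PAC-CM libraries for 11 members (6.86% of all genes tested) and below them for Neu1 and Scarb2 (15.7% of all). After scaling by the TMM factors of edgeR, which were 1.013 to 1.019 in PAC-CM and 0.979 to 0.990 in PAC-CM-KD, 17 members were higher without overlap (10.4% of all genes) and 1, Scarb2, was lower (11.4%).

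**Figure D1:**
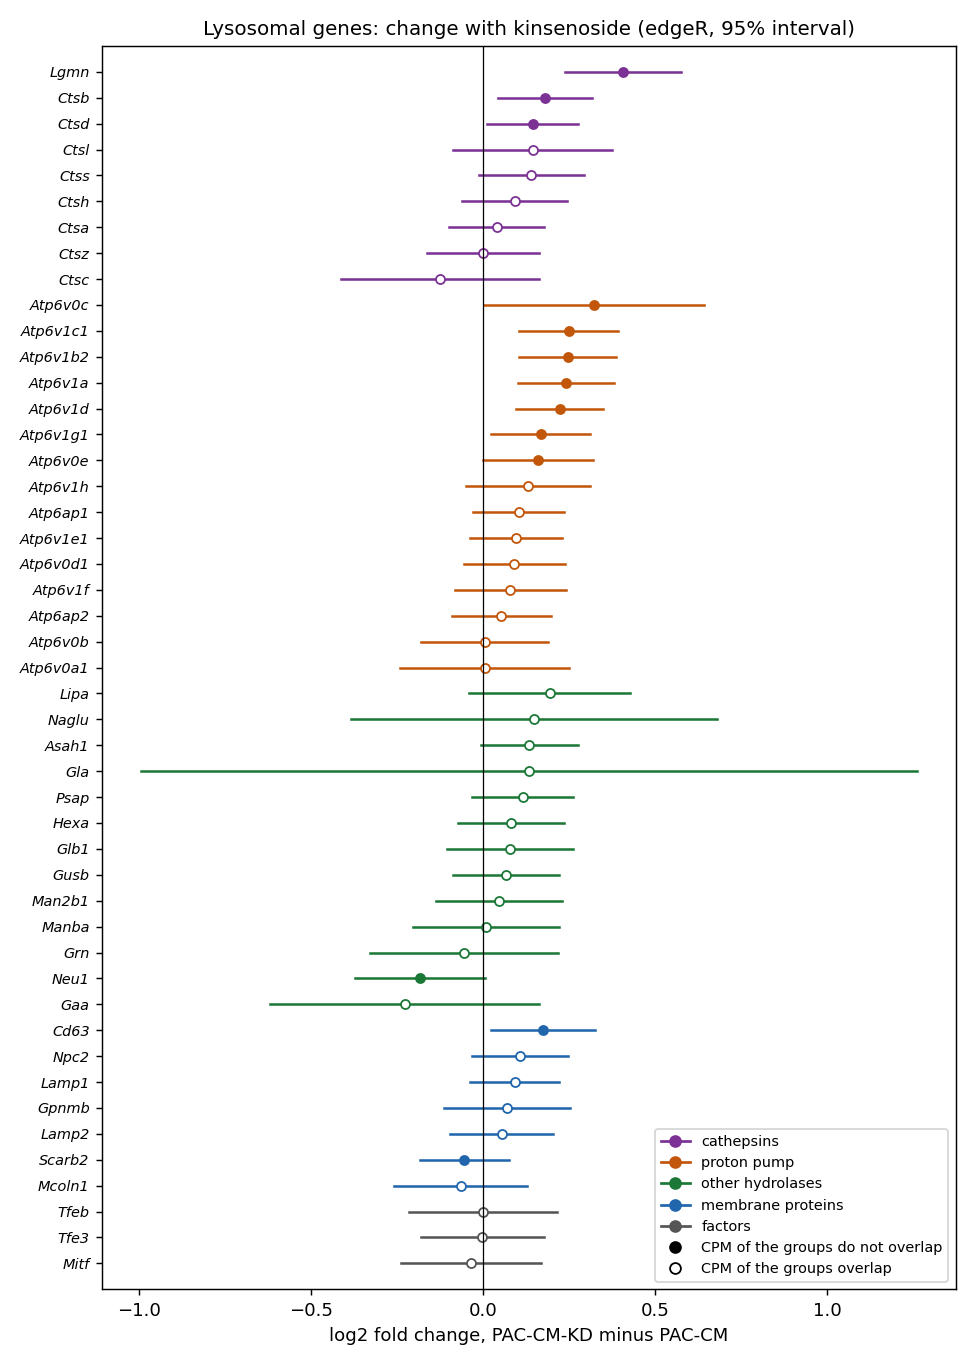
Log2 fold change of PAC-CM-KD against PAC-CM for the 47 lysosomal genes (points) with 95% intervals (bars), coloured by role, with filled points where the CPM of the groups do not overlap. All 15 pump genes lie at or right of 0, Lgmn lies farthest right at 0.41, and Gla has the widest interval, from -0.99 to 1.26.

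Lysosomal RNA was a large part of the RNA of these macrophages. The 47 genes took 10.49%, 10.29% and 10.17% of all counts with PAC-CM and 10.79%, 11.01% and 10.81% with PAC-CM-KD, in replicate order. The means were 10.3% ± 0.163 and 10.9% ± 0.120 (SD, n = 3 per group), and the groups did not overlap. Cathepsins accounted for the larger portion of the difference, at 4.82% ± 0.0234 and 5.18% ± 0.0680, without overlap. The pump took 0.4552% ± 0.0108 and 0.4998% ± 0.0143, also without overlap. The other hydrolases (2.21% and 2.30%), the membrane proteins (2.80% and 2.87%) and the 3 factors (0.0221% and 0.0212%) overlapped between groups. These shares are sums dominated by a few genes and were not tested.

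A handful of members ranked among the most abundant RNAs of the cells. Ordered by mean CPM over all genes, Gpnmb was at rank 1, Ctsb at 2, Psap at 4, Ctsd at 6 and Ctss at 10, so 5 members were among the 10 highest genes, and 11 were among the highest 100. Per kilobase of exon, which allows levels to be set side by side between genes, Psap was highest at 6297 CPM per kb, followed by Ctsd at 5825 and Ctss at 5735. The ranges over the 6 libraries of Psap (5893 to 6702), Ctsd (5549 to 6121) and Ctss (5371 to 6303) overlapped, so their order is not resolved. Ctsb at 3229 and Gpnmb at 3018 CPM per kb came next, again with overlapping ranges (2998 to 3443 and 2822 to 3325). Ctsz stood at 1610, Lamp1 at 1087 and Npc2 at 556. Pump subunits lay lower, from Atp6v0c at 183 and Atp6v0b at 171 down to Atp6v1h at 20.0 and Atp6v0a1 at 9.93. The factors were low, with Mitf at 14.2, Tfe3 at 11.5 and Tfeb at 3.83. Tfeb (3.47 to 4.27) and the hydrolase gene Manba (3.86 to 4.70) overlapped at the low end of the 47. Lengths were unions of annotated exons, so a gene with long unused exons is understated: over its longest transcript alone Gpnmb would be at 5313 CPM per kb, and Tfeb (9.27) would lie above Manba (8.12).

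**Figure D2:**
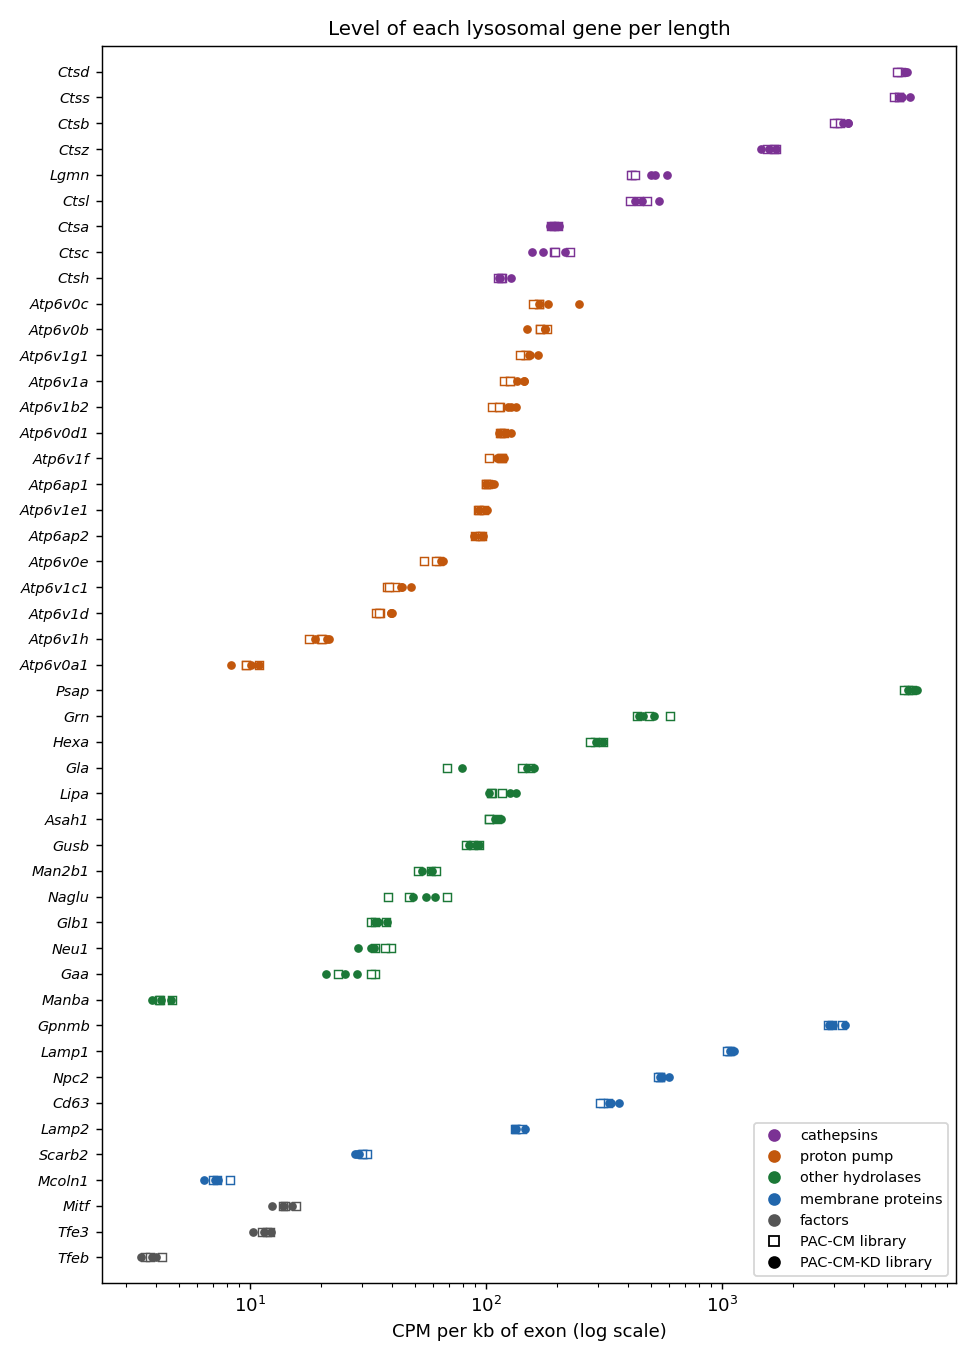
CPM per kilobase of exon (log axis) of the 47 genes in each library, ordered by mean and coloured by role, with squares for PAC-CM and circles for PAC-CM-KD. Psap, Ctsd and Ctss overlap at the top, between 5371 and 6702, and Manba and Tfeb overlap at the low end, between 3.47 and 4.70.

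Cathepsins cleave proteins in the lysosome, and most are cysteine proteases, except the aspartic protease cathepsin D and the serine carboxypeptidase cathepsin A. Of 9 genes none was called, 8 estimates lay above 0 and the median was 0.14. Lgmn (ENSMUSG00000021190, chromosome 12, 102394084 to 102439813, GRCm38) encodes legumain, an asparaginyl endopeptidase that processes other cathepsins. It was at 967, 954 and 999 CPM in PAC-CM and at 1171, 1215 and 1367 CPM in PAC-CM-KD. All 3 kinsenoside libraries were thus above all 3 others, and the lowest of them exceeded the highest PAC-CM value by more than the whole PAC-CM range. The means were 973 ± 23.4 and 1251 ± 103 CPM, and the log2 fold change was 0.41 (SE 0.0736, 95% interval 0.24 to 0.57). Its adjusted p was 0.067 in edgeR, the lowest of the 47 (unadjusted p = 0.000463). Over 17 alternatives the estimate stayed between 0.33 and 0.45 and the adjusted p ran from 0.000563 to 0.251. It passed with DESeq2 (adjusted p = 0.000563), with no filter on low counts (0.0415), with a GC correction (0.0468) and in edgeR without PAC-CM-KD replicate 1 (0.0419).

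Ctsb (ENSMUSG00000021939, chromosome 14, 63122462 to 63145923) encodes cathepsin B, a cysteine protease, and was the most abundant cathepsin by CPM. Its values were 18552, 18139 and 19158 CPM in PAC-CM and 19832, 20701 and 20834 CPM in PAC-CM-KD. The groups did not overlap, and the log2 fold change was 0.18 (SE 0.0603, edgeR adjusted p = 0.221). Its exons share 774 bases with those of Fdft1 on the opposite strand, but Fdft1 had at most 1727 counts in a library. Ctsd (ENSMUSG00000007891, chromosome 7, 142375911 to 142388038) encodes cathepsin D and has the CLEAR core in its promoter. It was at 13099, 13518 and 13047 CPM in PAC-CM and 14390, 14096 and 14018 CPM in PAC-CM-KD. These groups were separate as well, with a log2 fold change of 0.14 (SE 0.0574, edgeR adjusted p = 0.299).

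The remaining cathepsins overlapped between groups in CPM, but Ctss and Ctsh were higher without overlap after TMM scaling. Ctss, which encodes the cathepsin that trims the invariant chain in antigen presentation, was at 7645, 7294 and 7658 CPM against 7654, 7922 and 8559, with an estimate of 0.14 (adjusted p = 0.374 in edgeR). It was described after its values were seen. Ctsl had 0.14 and Ctsh 0.09, and Ctsa (0.04) and Ctsz (0.00) were near 0 and turned negative with total count scaling. Ctsc, which encodes the dipeptidyl peptidase that activates granule serine proteases, had the single estimate below 0, at -0.13 (edgeR adjusted p = 0.698). Its libraries ran from 1133 to 1321 CPM in PAC-CM and from 913 to 1260 in PAC-CM-KD.

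Among the genes of the proton pump all 15 estimates were above 0, from 0.00 to 0.32, with a median of 0.13, and none was called. With total count or upper quartile scaling 13 of the 15 were above 0, since Atp6v0a1 and Atp6v0b changed sign. The count was also 13 without PAC-CM replicate 3, without PAC-CM-KD replicate 1 and without PAC-CM-KD replicate 2. It was 14 with limma-voom, no filter, the replicate block and the GC correction, and without PAC-CM replicate 1 or 2. The 8 V1 genes, of the ATP-splitting sector, had a median of 0.20 (0.08 to 0.25), the 5 V0 genes, of the membrane sector, had 0.09 (0.00 to 0.32), and the 2 accessory genes Atp6ap1 and Atp6ap2 had 0.08. The difference between sectors was not tested. With each gene centred on its mean over the 6 libraries, the median of the pump genes' TMM-scaled log2 CPM was -0.06, -0.07 and -0.09 in PAC-CM and 0.09, 0.07 and 0.06 in PAC-CM-KD.

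Atp6v1a (ENSMUSG00000052459, chromosome 16, 44085402 to 44139705) encodes the catalytic A subunit, which splits ATP together with the B subunit. It was at 768, 720 and 764 CPM in PAC-CM and 820, 879 and 882 CPM in PAC-CM-KD, a log2 fold change of 0.24 (SE 0.0611). Atp6v1b2 (ENSMUSG00000006273, chromosome 8, 69088646 to 69113711), the B subunit gene expressed in most tissues, was at 612, 564 and 605 CPM and at 657, 712 and 680 CPM, a log2 fold change of 0.25 (SE 0.0619). Atp6v1d (ENSMUSG00000021114, chromosome 12, 78840725 to 78861638), a subunit of the central rotor, was at 164, 158 and 162 CPM and at 182, 185 and 182 CPM, a log2 fold change of 0.22 (SE 0.0550). In each of these 3 genes the kinsenoside libraries lay above the PAC-CM libraries without overlap. Atp6v1c1, of the stator that holds the V1 head, was named after its values were seen and was at 232, 213 and 218 CPM against 248.6, 268.9 and 246.2 (log2 fold change 0.25, SE 0.0635). The adjusted p of these 4 V1 genes was between 0.128 and 0.131 in edgeR. DESeq2 called all 4 (adjusted p = 0.0226 to 0.0337), the single alternative of 17 that did, and their estimates were above 0 in all 17.

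Atp6v0c encodes the proteolipid of the V0 ring, the part that carries the protons. Its CPM were 571.79, 566.9 and 535.5 in PAC-CM and 840.7, 619.2 and 571.82 in PAC-CM-KD. PAC-CM-KD replicate 1 was high, and replicate 3 exceeded the highest PAC-CM library only in the second decimal, so this separation is nominal. The log2 fold change was 0.32 (SE 0.137, 95% interval 0.00 to 0.64, edgeR adjusted p = 0.331), and without PAC-CM-KD replicate 1 it was 0.14. A copy listed as a pseudogene, Atp6v0c-ps1, had at most 3 counts in a library. Atp6v1g1 (0.17) and Atp6v0e (0.16) were also higher without overlap, with edgeR adjusted p of 0.266 and 0.332. Atp6v1h (0.13), Atp6ap1 (0.10), Atp6v1e1 (0.10), Atp6v0d1 (0.09), Atp6v1f (0.08) and Atp6ap2 (0.05) overlapped between groups in CPM. Of these Atp6ap1 was higher without overlap after TMM scaling. Atp6v0b (0.01) and Atp6v0a1 (0.00) were near 0.

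**Figure D3:**
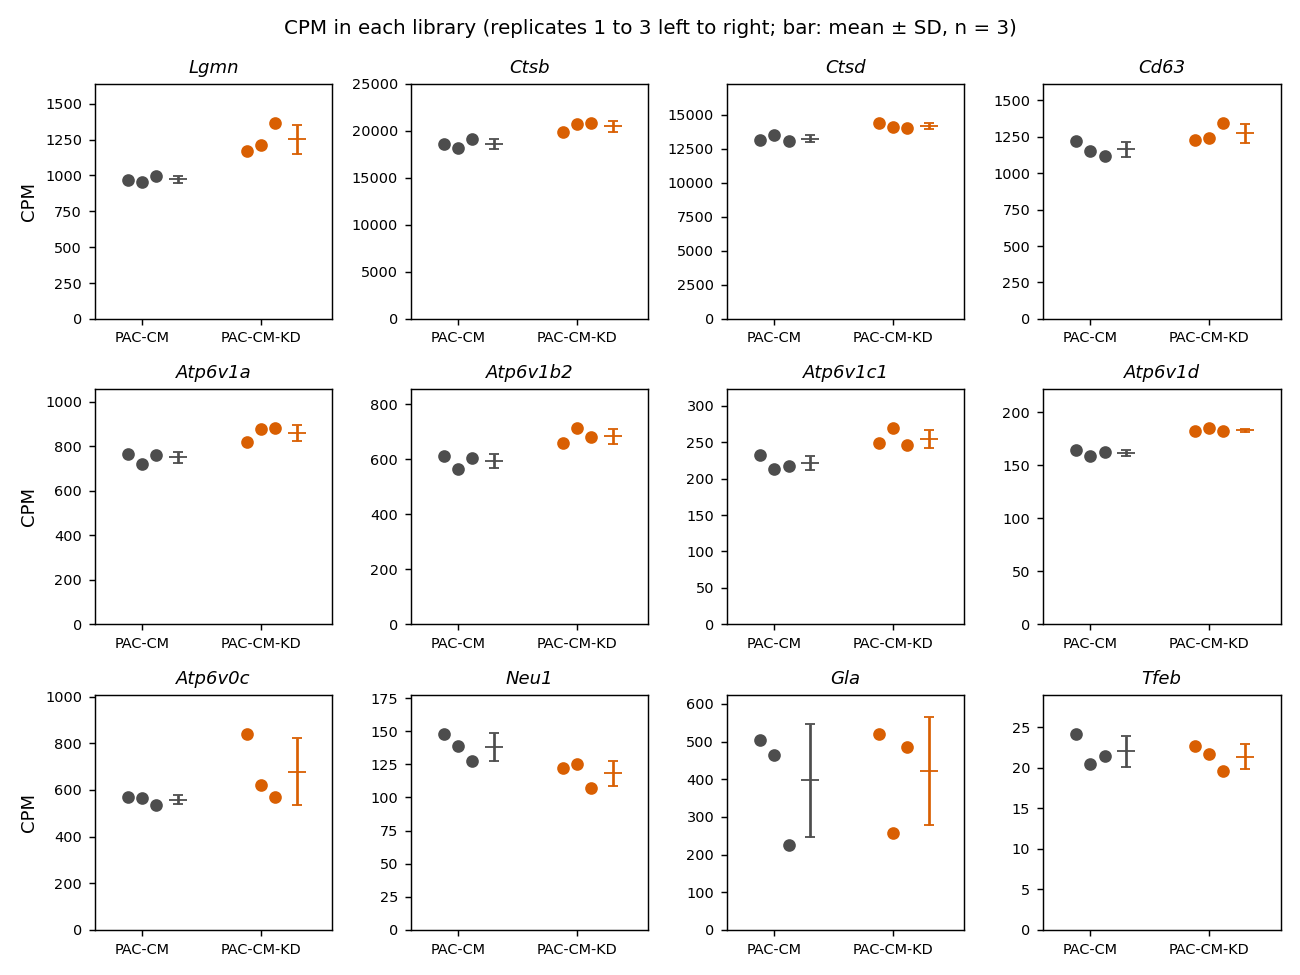
CPM in each library for Lgmn, Ctsb, Ctsd, Cd63, 5 pump genes, Neu1, Gla and Tfeb, with PAC-CM at left and PAC-CM-KD at right (points, replicates 1 to 3) and the mean ± SD beside them (n = 3 per group), each axis starting at 0. Lgmn and the V1 subunits are separate between groups, whereas Gla falls to 224 and 258 CPM in 1 library of each group.

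The other hydrolases remove sugars and lipids from glycoproteins and glycolipids, and genetic loss of many of them causes a storage disease. Of 13 genes none was called, 10 estimates lay above 0 and the median was 0.08. Psap (ENSMUSG00000004207, chromosome 10, 60277627 to 60302597) encodes prosaposin, the precursor of the saposins that present glycolipids to the enzymes. It was at 16891, 17499 and 16170 CPM in PAC-CM and 18391, 17832 and 16893 CPM in PAC-CM-KD, groups that overlapped (log2 fold change 0.12, SE 0.0646, edgeR adjusted p = 0.450). Grn, for progranulin, the precursor of the granulins, was at 1710, 2092 and 1515 CPM and at 1798, 1613 and 1553 CPM. The groups overlapped around a high PAC-CM replicate 2 (log2 fold change -0.06, edgeR adjusted p = 0.881).

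Neu1, the sialidase, had the smallest p of this group. It was at 148, 139 and 127 CPM in PAC-CM and 122, 125 and 107 CPM in PAC-CM-KD, so the groups did not overlap in CPM, but they did after TMM scaling. The log2 fold change was -0.18 (SE 0.0825, edgeR adjusted p = 0.349). Asah1, the acid ceramidase, was at 351, 350 and 378 CPM and at 371, 385 and 392 CPM (log2 fold change 0.13, SE 0.0617, edgeR adjusted p = 0.358). Its groups overlapped in CPM but not after TMM scaling. Lipa, the acid lipase that releases cholesterol and fatty acids from lipoproteins, had 0.19 (edgeR adjusted p = 0.423), and Gaa, the acid alpha-glucosidase that degrades glycogen, had -0.23 (edgeR adjusted p = 0.578). Hexa (0.08), Glb1 (0.08), Gusb (0.07), Man2b1 (0.05) and Manba (0.01) had small estimates, and all 5 overlapped between groups.

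Gla, which encodes the alpha-galactosidase lacking in Fabry disease, varied most between libraries, and it was described after its values were seen. Its counts were 21654, 22004 and 9902 in PAC-CM and 22613, 10882 and 20025 in PAC-CM-KD. PAC-CM replicate 3 and PAC-CM-KD replicate 2 had about one count for every 2 of the others, which does not follow the groups. The coefficient of variation over the 6 libraries was 32.3%, against a median of 6.51% over the 47 genes and 12.6% over all genes tested. The log2 fold change of 0.13 had an SE of 0.432 and was -0.15 without PAC-CM replicate 3 and 0.39 without PAC-CM-KD replicate 2. No annotated gene shares exon bases with Gla. Naglu, the alpha-N-acetylglucosaminidase of heparan sulphate breakdown, was next in variation at 19.9%, from 103 to 182 CPM in PAC-CM and 130 to 162 in PAC-CM-KD (log2 fold change 0.15, SE 0.218).

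Of the 7 genes for membrane and carrier proteins none was called, 5 estimates lay above 0 and the median was 0.07. Gpnmb, a glycoprotein of lysosomes and melanosomes, was at 20977, 18385 and 19102 CPM in PAC-CM and 18516, 21657 and 19334 CPM in PAC-CM-KD. This gene, the highest of all by mean CPM though not per kilobase, thus overlapped between groups (log2 fold change 0.07, SE 0.0806, 95% interval -0.11 to 0.25, edgeR adjusted p = 0.742). Npc2, the luminal carrier that passes cholesterol to the exporter NPC1, was at 2978, 2982 and 2911 CPM and at 3262, 2981 and 3028 CPM (log2 fold change 0.11, edgeR adjusted p = 0.453). PAC-CM-KD replicate 1 was its high library. Cd63, a tetraspanin of late endosomes, was at 1219, 1151 and 1119 CPM and at 1227, 1245 and 1346 CPM, without overlap (log2 fold change 0.17, SE 0.066, edgeR adjusted p = 0.273). A processed copy, Cd63-ps, held 4423 to 4874 counts in the libraries, so the value of Cd63 is uncertain to the extent that its reads were divided.

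Lamp1 and Lamp2, the major glycoproteins of the lysosomal membrane, had 0.09 and 0.05. Lamp1 was the least variable of the 47 genes, with a coefficient of variation of 2.43%. Scarb2, the receptor that carries beta-glucocerebrosidase to lysosomes, was lower without overlap, at 191, 197 and 187 CPM against 179, 182 and 176. Its log2 fold change was only -0.05 (SE 0.0565, edgeR adjusted p = 0.712), and it was named after its values were seen. Mcoln1, a calcium channel of the lysosome, had -0.06.

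The RNA of the 3 transcription factors did not differ detectably between groups. Tfeb was at 24.2, 20.5 and 21.4 CPM in PAC-CM and 22.7, 21.8 and 19.6 CPM in PAC-CM-KD (log2 fold change 0.00, SE 0.0937, 95% interval -0.21 to 0.21, edgeR adjusted p = 0.999). Tfe3 was at 113, 109 and 104 CPM and at 113, 95.6 and 107 CPM (0.00, 95% interval -0.18 to 0.18, edgeR adjusted p = 0.994). Mitf was at 87.6, 85.6 and 97.2 CPM and at 76.9, 85.6 and 93.2 CPM (-0.04, 95% interval -0.24 to 0.17, edgeR adjusted p = 0.900). All 3 genes overlapped between groups, and the intervals leave room for changes of up to about 0.2 on the log2 scale in either direction. Of the 7 members with the CLEAR core in a promoter, 6 had estimates above 0, with a median of 0.13 (-0.06 to 0.24). Of the 33 with a promoter in the table and no CLEAR core, 26 did, with a median of 0.07 (-0.23 to 0.41). The ranges overlapped, and this difference was not tested.

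**Figure D4:**
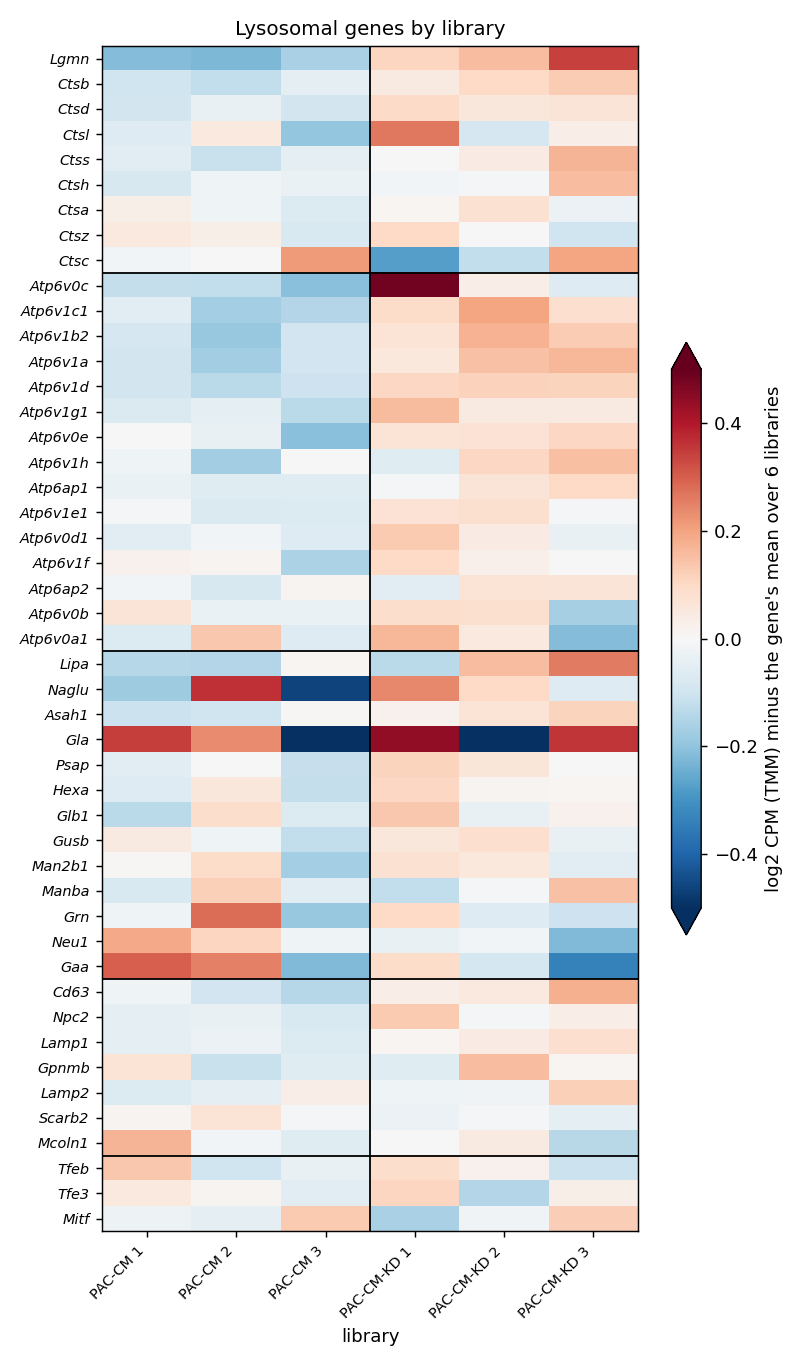
TMM-scaled log2 CPM of the 47 genes in each library minus the gene's mean over the 6 libraries, with colours ending at ±0.5. The pump rows are mostly below their mean in PAC-CM and above it in PAC-CM-KD, and Gla is low in PAC-CM replicate 3 and PAC-CM-KD replicate 2.

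The members' values within a group varied with base composition. Across the 47 genes, the deviation of a library from its group mean correlated with GC content of the longest transcript at a Spearman rho of 0.23, 0.42 and -0.58 for the 3 PAC-CM libraries and 0.54, 0.00 and -0.61 for the 3 PAC-CM-KD libraries, in replicate order. Across 13891 tested genes with a GC value the same measure was between -0.25 and 0.26. GC-rich lysosomal genes were thus relatively high in PAC-CM-KD replicate 1 and low in PAC-CM replicate 3 and PAC-CM-KD replicate 3. Genes of 1 library share its preparation and depth, and these correlations are descriptions. The log2 fold change itself had a rho of -0.22 with GC content over the 47 genes. After removal of a GC trend from each library, an alternative chosen after seeing the data, 39 members were above 0 with a median of 0.11, and Lgmn was called, as 1 of 99 genes in all. What part GC content had in single estimates was not tested further.

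**Figure D5:**
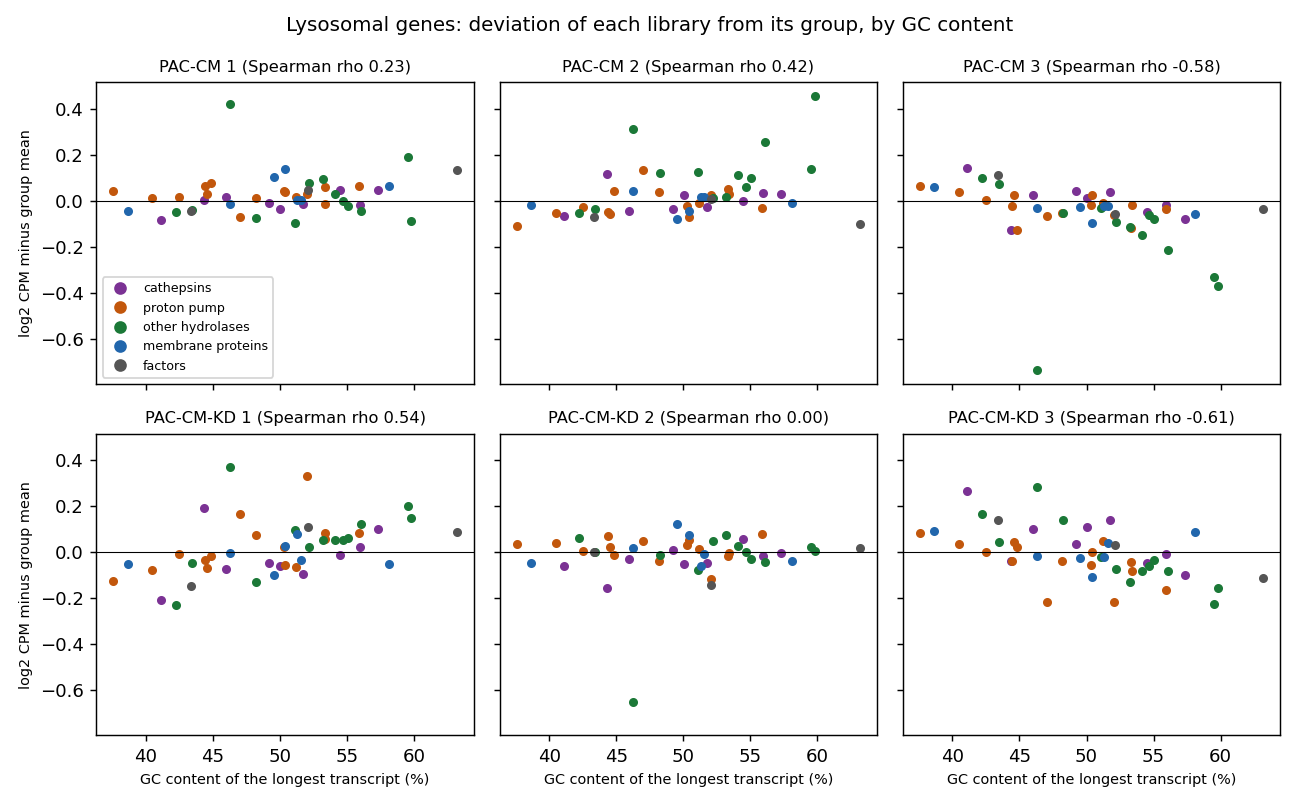
Deviation of each library from its group mean (log2 CPM) against GC content of the longest transcript (%) for the 47 genes, 1 panel per library, coloured by role. The points slope down in PAC-CM replicate 3 and PAC-CM-KD replicate 3 (rho -0.58 and -0.61) and up in PAC-CM-KD replicate 1 (0.54).

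Other genes of the pathway were read from 8 lists of 130 genes, of which 115 were tested. None was called in edgeR (0.511% of all genes tested were), 63 estimates lay above 0 and the median was 0.02. At an unadjusted p under 0.05, 10 of the 115 were higher and 9 lower, where 6.74% and 8.19% of all genes tested were. DESeq2, which called 3.56% of all genes, called 6 of these (Atp6v0d2, Ctsk, Fnip2, Rnaset2b and Rragd higher, Tpcn2 lower). Over all genes DESeq2 called 230 higher and 264 lower. In edgeR the shares of pathway genes at an unadjusted p under 0.05 were near those of all genes in both directions. The difference from the 47 members was not tested.

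Of 10 further pump isoforms 4 were tested, 1 above 0, with a median of -0.10. Atp6v0d2, the d subunit of osteoclasts and some macrophages, was at 329, 294 and 280 CPM in PAC-CM and 333, 410 and 375 CPM in PAC-CM-KD, without overlap (log2 fold change 0.35, SE 0.0923, edgeR adjusted p = 0.138). Tcirg1, for the a3 subunit and the most abundant of the isoforms, had -0.05, and Atp6v1g2, at about 1 CPM or less, had -1.31 (edgeR adjusted p = 0.306). Of 11 assembly factors 7 were above 0, with a median of 0.00. Their smallest p were those of Rogdi (-0.40) and Dmxl1 (0.15), and Dmxl2 was the most abundant (0.11). Of 6 further cathepsins 4 were tested, with a median of 0.18. Ctsk, the collagen-degrading cathepsin K, was at 83.6, 67.1 and 70.4 CPM and at 95.5, 97.8 and 97.2 CPM, without overlap (log2 fold change 0.44, SE 0.0866, edgeR adjusted p = 0.0771). Ctse had 0.40 at under 1 CPM, and Ctso, the most abundant by the mean over all libraries, had -0.05. With kinsenoside Ctsk was the higher of these, at 96.8 against 84.2 CPM, and with PAC-CM alone Ctso was, at 89.6 against 73.7 CPM. Of 9 cystatins and stefins, inhibitors of cysteine cathepsins, 3 were tested, with a median of 0.10, and Cstb had 0.16 and Cst3 0.10.

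Of 34 further hydrolases and activators 20 were above 0, with a median of 0.02. Rnaset2b, 1 of a pair of near-identical ribonuclease genes whose reads may be divided, had 0.23 and the phospholipase gene Pla2g15 had 0.22, with edgeR adjusted p of 0.133 and 0.196. Lyz2, for lysozyme, the most abundant gene of that list, had 0.22 (edgeR adjusted p = 0.357). Of 26 further membrane proteins and transporters 12 were above 0, with a median of -0.03. Tpcn2, a cation channel of lysosomes, was at 62.9, 61.3 and 65.8 CPM in PAC-CM and 46.8, 48.6 and 49.8 CPM in PAC-CM-KD. The kinsenoside libraries were all lower (log2 fold change -0.34, SE 0.0646, edgeR adjusted p = 0.0716). Ostm1, the partner of the chloride transporter ClC-7, had -0.26 without overlap (edgeR adjusted p = 0.140), and Cd68, the most abundant, had 0.05.

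Of 12 genes for mannose 6-phosphate tagging and sorting, which bring enzymes to lysosomes, 5 were above 0, with a median of -0.02. Gga3 had -0.37, Gnptab -0.15 and M6pr, the most abundant, -0.04. The last list held 22 genes around mTORC1, which keeps TFEB in the cytoplasm when nutrients are plentiful: parts of the Ragulator, Rag and mTORC1 complexes, but also the mTORC1 inhibitors Tsc1 and Tsc2, the calcineurin subunit Ppp3cb, which acts against it on TFEB, and Tfec, a relative of TFEB. Of these 21 were tested and 14 were above 0, with a median of 0.09. Fnip2, of the folliculin complex that acts on RagC and RagD and the most abundant of these genes, was at 418, 408 and 381 CPM and at 507, 506 and 448 CPM, without overlap (log2 fold change 0.32, SE 0.0705, edgeR adjusted p = 0.0983). Rragd, for RagD, was at 19.6, 13.2 and 16.1 CPM and at 22.7, 23.7 and 20.5 CPM, also without overlap (log2 fold change 0.50, SE 0.138, edgeR adjusted p = 0.162).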

How the data were processed

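Gene counts of 6 libraries (3 per group) were used as the authors deposited them, whole-number counts per Ensembl gene and library. Per the submitters' processing notes, the tools were STAR, StringTie 1.3.1c and DESeq2 1.16.1, with bcl2fastq 2.20 and FastQC 0.11.2, and the build GRCm38, without roles. The counting tool and its use of strand are not given in the sources used here. Reads of overlapping genes may therefore be divided: 12 members share exon bases with another gene and 35 with none. Libraries were poly(A)-selected and read as 150-nucleotide pairs.

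The test was edgeR 4.0.16 (R 4.3.3): filterByExpr, which kept 13901 genes and all 47 members, TMM scaling and robust quasi-likelihood fits on the group, two-sided, with Benjamini-Hochberg adjustment over all genes tested and a threshold of 0.05. CPM are counts over library totals, and log2 CPM used TMM factors and a prior count of 2. Coordinates, exon lengths and GC content came from GENCODE M21, promoters from RefSeq. The fit was checked on simulated counts.

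Members and lists were chosen with earlier results of these data known. Values in every library were given for the 2 most abundant and the 2 of smallest p in each subgroup, all factors, and members separate between groups with a log2 fold change of at least 0.25. In other lists the 2 of smallest p and the most abundant were named. Alternatives were DESeq2 1.42.0, limma-voom (limma 3.58.1), 3 scalings, 2 filters, a replicate block, non-robust estimates, no mitochondrial and top 20 genes, each library left out and, added later, a GC correction.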

Additional observations from a re-analysis of the deposited data

How the results depend on the processing

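Of 13901 genes 71 were called. Other settings gave 494 (DESeq2), 39 (limma-voom), 42 (replicate block), 36 (non-robust estimates), 105 of 23425 (no filter) and 99 (GC correction), and leaving out 1 library gave 13 (PAC-CM replicate 1) to 98 (PAC-CM-KD replicate 1). The 0 members called became 5 with DESeq2, and 1 (Lgmn) with no filter and with the GC correction, and 0 to 1 with 1 library left out (1 without PAC-CM-KD replicate 1). The 0 called genes of the pathway lists became 6 with DESeq2, 1 (Tpcn2) with total count scaling, and 0 to 1 with 1 library left out (Vma21 without PAC-CM-KD replicate 3). The members' median of 0.0916 was 0.0472 with total count scaling and 0.0715 to 0.108 with 1 library left out. Between libraries of the same replicate number the correlations of deviations were 0.01, -0.10 and 0.14. Only the libraries of replicate 3 correlated best with their own number. These values show no clear pairing of the samples, but with so few libraries they cannot exclude it. With the block 0 members were called.

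Of the 47 members 34 kept their sign in all alternatives run for them (17, or 16 for Ctsb, Ctsd, Ctss, Psap and Gpnmb, which are among the 20 most abundant genes), and 13 with estimates within 0.15 of 0 changed it at least once. The cause was not tested. With total count scaling Ctsz had -0.0437, Tfeb -0.0441, Atp6v0a1 -0.0393, Atp6v0b -0.0387, Manba -0.0351 and Ctsa -0.00456. With upper quartile scaling Ctsz had -0.0174, Tfeb -0.0178, Atp6v0a1 -0.0131, Atp6v0b -0.0126 and Manba -0.00858. Tfe3 had 0.00496 with DESeq2, 0.00495 with RLE scaling, 0.00165 with the CPM filter, 0.00117 without mitochondrial and top 20 genes, and 0.0205 with the GC correction. Ctsz had -0.000747 with limma-voom, -0.00408 with no filter and -0.000785 with the block. Atp6v0a1 had -0.00113, -0.000667 and -0.0013 in these settings and -0.00486 with the GC correction. With that correction Manba had -0.00271 and Grn 0.00165, and Tfeb had -0.00378 with no filter. With 1 library left out, Atp6v0a1 ran from -0.0821 to 0.106, Atp6v0b from -0.0376 to 0.0836, Ctsz from -0.0512 to 0.0481, Gla from -0.146 to 0.392, Grn from -0.152 to 0.0863, Man2b1 from -0.0201 to 0.107, Manba from -0.0646 to 0.0763, Mcoln1 from -0.107 to 0.00911, Mitf from -0.11 to 0.0332, Naglu from -0.0174 to 0.414, Tfe3 from -0.0600 to 0.0656 and Tfeb from -0.0461 to 0.0718.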
